A study of Rattus norvegicus with 43 samples.

Results

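Colonic mucosa of rats fed olive oil was compared between 10 wk and 12 h after injection of the colon carcinogen azoxymethane. The comparison takes every olive oil rat of the study, chosen by the diet and time that the sample labels give: 5 rats with 7 arrays at 10 wk and 5 rats with 6 arrays at 12 h. These are 10 of 29 rats and 13 of 43 arrays, and the remaining rats were fed corn oil or fish oil. All rats were male Sprague Dawley animals, described as weanling, and received azoxymethane at 15 mg/kg. The series title places the 2 times at the initiation and the progression of colon cancer and asks which expression signatures diet modifies there. The treatment protocol in the labels gives the late rats a second injection and counts 9 wk from it, whereas their sample labels read 10 wk, and the groups are called 12 h and 10 wk here. The late rats were thus older, had been injected again and had eaten the oil for longer, which cannot be told apart, and no RNA of uninjected rats was analysed here.

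Azoxymethane is converted in the body to an agent that methylates DNA. In colonic crypts such damage activates the transcription factor p53, which raises genes of cell cycle arrest and cell death, and dividing crypt cells are lost or arrested in the hours that follow. Crypt cells normally divide in the lower crypt and then differentiate into absorptive colonocytes, goblet cells and enteroendocrine cells as they move up. Olive oil is rich in the monounsaturated oleic acid. In bulk mucosa, fewer cells of a type and less RNA per cell cannot be told apart.

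Expression was read on 1-colour CodeLink arrays, on which each probe is a spot whose brightness reports its transcript. A level is the log2 of the background-corrected, quantile-normalised spot intensity, averaged over a rat's repeat arrays, and every difference is 10 wk minus 12 h on that scale. Of 8452 probes, 6381 were bright enough to test. On the olive oil arrays between 93% and 99.8% of spots lay at or above the noise level given by the scanner. The median signal above background was 320 to 656 intensity units. Repeat arrays of rats 301, 334 and 336 differed with an SD of 0.12 to 0.222 of the log2 difference over probes. The median SD of a probe's level between rats of a group was 0.196. Arrays also differed in spot shape in the scan columns, with hollow, narrow and broad spots, called scan class here. A further class with high background (median 81 to 83) held only repeat arrays of corn oil rat 136 and fish oil rat 236. Values per rat are given in the order of rats 301, 302, 304, 305 and 306 at 12 h and 332, 333, 334, 335 and 336 at 10 wk. Of the early rats, 301, 302 and 305 had hollow spots and 304 and 306 narrow ones. Of the late rats, 333 had hollow spots and 332, 334, 335 and 336 broad ones. Only the hollow class thus holds both times in these rats. Differences were also computed within the hollow class alone (rat 333 against the 3 early rats). A further fit took scan class as a block (the scan class block), with 1 effect per class over all 29 rats. Within a diet and time only corn oil rats hold both narrow and broad spots, so part of that correction comes from corn oil rats. The block also left out repeat arrays whose class differed from the rat's first array, all from corn oil and fish oil rats. The repeat arrays of rats 301, 334 and 336 each stayed within 1 class. Across classes, repeat arrays of other rats differed by more for some genes. Examples are Cda (1.25, rat 202, hollow minus narrow), Cdkn2b (1.20, rat 103, broad minus narrow) and Jun (-1.03, rat 206, broad minus narrow). Zmiz1 gave 0.06, 0.06 and -0.05 in these 3 rats.

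At 10 wk 501 probes were higher and 351 lower than at 12 h at an adjusted p under 0.05 (limma, Benjamini-Hochberg over all tested probes). That is 13.4% of the tested probes, 7.85% higher and 5.5% lower, and at an unadjusted p under 0.05 there were 1925. The called probes include 578 named genes, and the median size of their log2 difference was 0.50. Only 31 called probes differed by 1 or more, 19 of them higher and 12 lower. The 2 groups of 5 rats did not overlap for 749 probes (11.7% of those tested), 546 of which were called. The median difference over all tested probes was 0.00. The scan class block left 113 probes higher and 81 lower (3.04% of those tested). Of the 852 called probes, 851 kept their sign under that block and 187 their call. That fit reuses the rats that made the calls, which favours the same sign. Of the probes not called 80.9% kept their sign.

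The p53 targets Phlda3 and Ccng1 were among the largest falls. Phlda3, which p53 induces and whose protein restrains Akt signalling, had levels of 9.63, 9.59, 8.51, 8.94 and 9.00 in the 5 early rats and 6.93, 7.16, 7.15, 7.34 and 6.90 in the 5 late rats. Every late rat lay below every early one, and the late values were packed within a narrower range. The difference was -2.04 (SE 0.29, 4.11-fold lower, adjusted p = 0.000167). Ccng1, which encodes cyclin G1 and is a p53 target, was measured by 2 probes. Its brighter probe went from 13.23, 13.15, 11.93, 12.66 and 12.25 to 11.22, 11.51, 11.22, 11.86 and 11.34, again without overlap. That probe fell by 1.22 (SE 0.26, adjusted p = 0.00335) and the other by 1.26 (SE 0.20, adjusted p = 0.000452). Plk2, a polo-like kinase gene that p53 induces, had levels of 9.16, 9.18, 9.34, 9.01 and 8.91 at 12 h and 8.45, 7.68, 8.30, 8.19 and 8.74 at 10 wk. It fell by 0.85 (SE 0.17, 1.8-fold, adjusted p = 0.00195), and its groups did not overlap.

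Cdkn1a encodes p21, the inhibitor of cyclin-dependent kinases through which p53 halts the cell cycle. It fell less, by 0.38 (SE 0.10, 1.3-fold, adjusted p = 0.0137), from a mean level of 13.84 ± 0.13 (SD, n = 5) to 13.46 ± 0.14 (SD, n = 5), without overlap. Its other probe gave -0.64 (adjusted p = 0.125). Gadd45a, a stress-response gene induced by p53 and named after its values were seen, fell by 0.41 (SE 0.14, adjusted p = 0.043) with overlapping groups. Its call ended without any 1 of rats 332, 334, 335, 336, 301, 304 or 305 (adjusted p 0.0534 to 0.137). Of the 11 tested p53 targets 5 fell and 0 rose, with a list median of -0.36, where 5.5% of all tested probes fell. Bax, which promotes mitochondrial cell death, and Perp, a desmosome gene that p53 activates, had differences of -0.26 (adjusted p = 0.218) and -0.27 (adjusted p = 0.068). Phlda3 (-2.23, adjusted p = 0.00188), Ccng1 (-1.26, adjusted p = 0.0204) and Plk2 (-1.01, adjusted p = 0.0138) passed also under the scan class block, and Cdkn1a (-0.36, adjusted p = 0.112) and Gadd45a (-0.29, adjusted p = 0.385) did not.

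The opposite direction held for genes of dividing cells. Mki67, whose protein Ki-67 marks proliferating cells, had levels of 9.58, 9.70, 9.26, 9.54 and 9.62 at 12 h and 10.20, 10.31, 11.00, 10.90 and 10.87 at 10 wk. The groups did not overlap, and rats 332 and 333 were the lowest of the late ones. The rise was 1.12 (SE 0.20, 2.17-fold, adjusted p = 0.00145). Cenpf, which encodes a kinetochore protein of mitotic cells, rose from 8.55, 8.93, 8.48, 8.69 and 9.24 to 9.48, 10.01, 10.41, 10.40 and 10.31. Here too every late rat was above every early one, with rat 332 lowest. It had the largest rise among the called genes with non-overlapping groups, at 1.34 (SE 0.27, 2.54-fold, adjusted p = 0.00212). Racgap1, needed for cytokinesis, went from 9.06, 9.15, 8.90, 9.22 and 9.36 to 9.82, 9.88, 10.43, 10.12 and 10.53, a rise of 1.02 (SE 0.18, adjusted p = 0.00136). Cdk1, the kinase that drives entry into mitosis, had levels of 9.69, 9.62, 9.25, 9.86 and 9.95 against 10.18, 10.30, 10.73, 10.54 and 10.85. It rose by 0.84 (SE 0.16, adjusted p = 0.00161) and by 0.94 (adjusted p = 0.00453) on its other probe, and neither it nor Racgap1 overlapped between groups.

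Of the 18 tested cell cycle genes 10 rose and 0 fell, with a list median of 0.65, where 7.85% of all tested probes rose. The mean level of the 18 genes was 8.75 to 9.02 in the 5 early rats and 9.13 to 9.66 in the 5 late rats, so no late rat reached down to an early one. Ccna2, the cyclin partner of Cdk1 and Cdk2 in S and G2 phase, rose by 0.94 (SE 0.18, adjusted p = 0.00195), with rat 306 above the lowest late rat. The remaining members that rose were named after their values were seen. They are Stmn1 (0.86), a regulator of microtubules, Prc1 (0.73), which bundles microtubules of the central spindle, Tk1 (0.70), the thymidine kinase of S phase, Cks2 (0.69), a subunit of cyclin-dependent kinase complexes, and Aurkb (0.62), a kinase of chromosome segregation. Tested genes of DNA replication did not pass. Pcna, the sliding clamp of DNA polymerase, gave -0.02 (SE 0.15), Mcm4 and Mcm5 of the replicative helicase 0.19 (SE 0.16) and 0.16 (SE 0.19), and Rrm1 of ribonucleotide reductase 0.11 (SE 0.10). Tyms, for thymidylate synthesis, gave -0.31 (adjusted p = 0.0805). The remaining members did not pass either: Foxm1 gave -0.27 (adjusted p = 0.0849), Mybl2 0.26 (adjusted p = 0.231) and Mad2l1 0.01 (SE 0.14). Without any 1 of rats 334, 336 or 304 only 8 members rose, because Stmn1 and Aurkb then missed the threshold (adjusted p 0.0523 to 0.072). Under the scan class block 3 of the 18 passed, Racgap1 (0.91), Cdk1 (0.74) and Ccna2 (0.80), and the list median was 0.58. Mki67 then gave 0.86 (adjusted p = 0.0561) and Cenpf 1.16 (adjusted p = 0.0519).

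**Figure D1:**
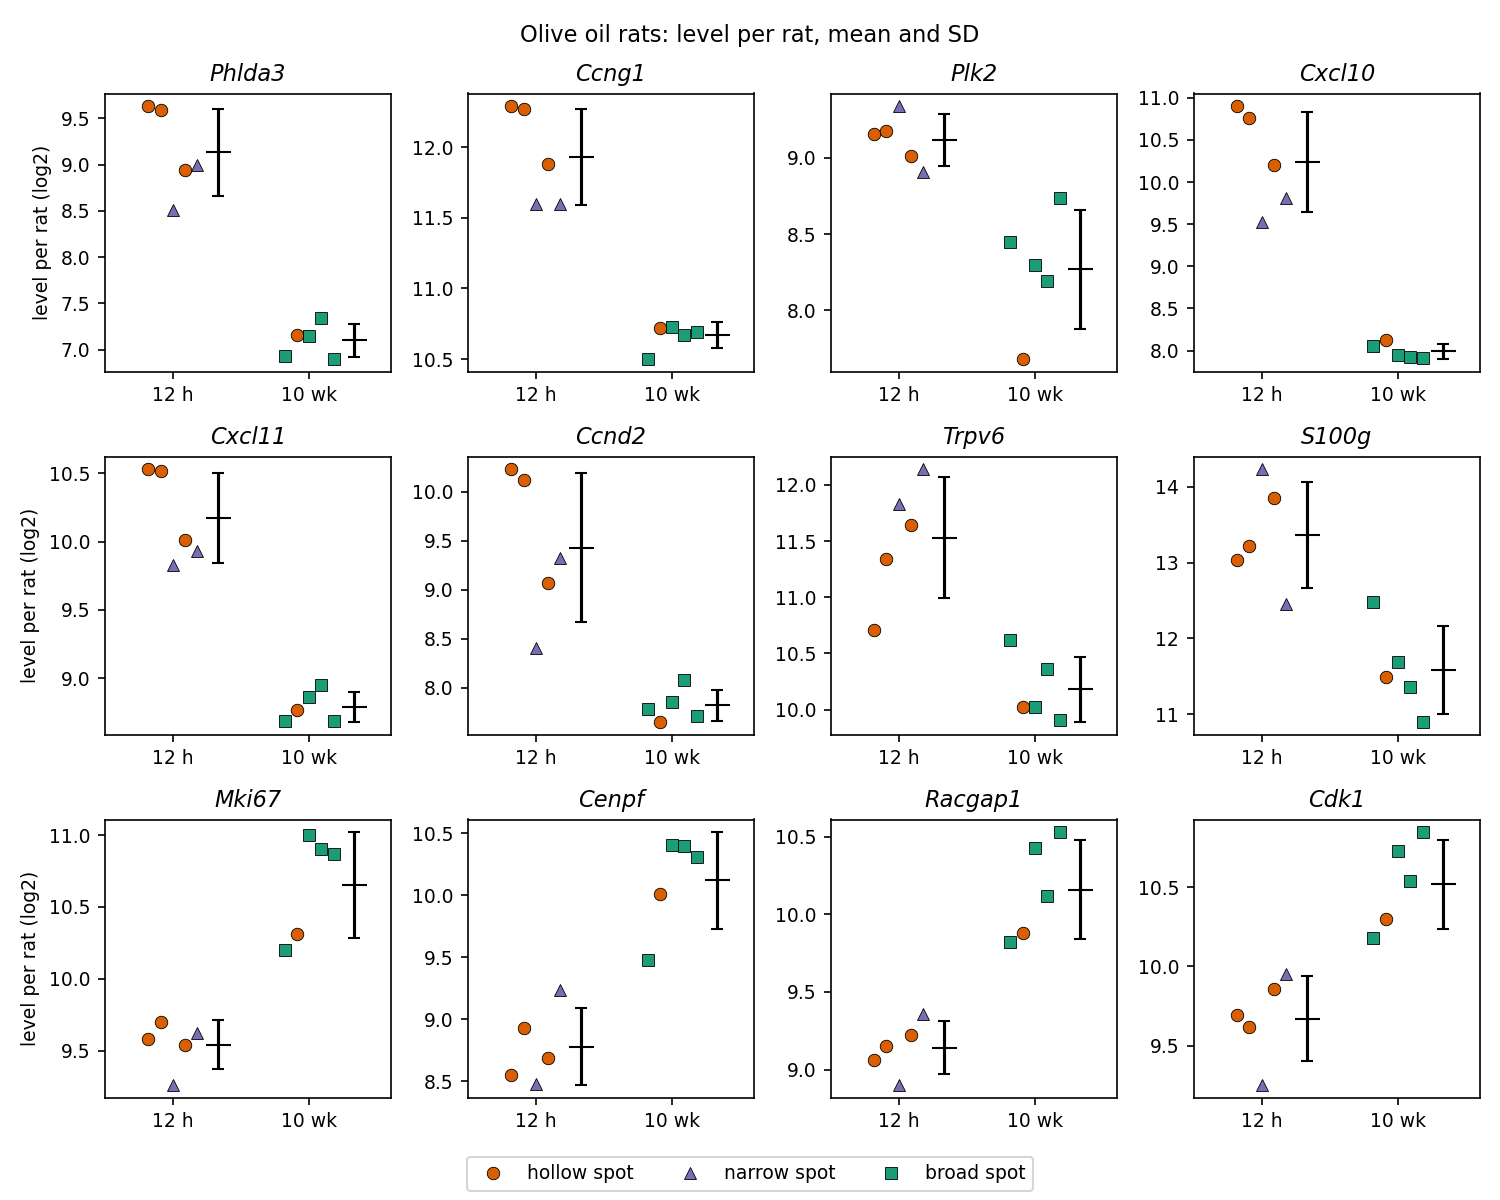
Level per rat (log2 normalised intensity, vertical axis with its own scale in each panel, Ccng1 by its dimmer probe) of 12 genes in the olive oil rats at 12 h and 10 wk, with the mean and SD of each group of 5 beside the points and the marker giving the scan class. The p53 targets Phlda3, Ccng1 and Plk2, the chemokines Cxcl10 and Cxcl11, Ccnd2 and the calcium genes Trpv6 and S100g were lower at 10 wk, while Mki67, Cenpf, Racgap1 and Cdk1 were higher, and only S100g overlaps.

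Promoter sequence of rising and falling genes is shown because cell cycle genes moved together here and because p53 acts by binding DNA. Sequences are from RefSeq, build GRCr8, read 5′ to 3′ in the direction of the gene, and end where the annotated gene begins, which leaves out the last 41 bases of the 250-base window for Cdk1 and 45 for Cenpf. Cdk1 lies on the plus strand at chr20:19265043-19265251, Cenpf on the minus strand at chr13:103760932-103761136, Phlda3 on the plus strand at chr13:49744753-49745002 and Ccng1 on the minus strand at chr10:25684877-25685126. Capitals mark CCAAT and TTTGAA on either strand, the binding sequence of the factor NF-Y and the core of the cell cycle homology element.
Cdk1: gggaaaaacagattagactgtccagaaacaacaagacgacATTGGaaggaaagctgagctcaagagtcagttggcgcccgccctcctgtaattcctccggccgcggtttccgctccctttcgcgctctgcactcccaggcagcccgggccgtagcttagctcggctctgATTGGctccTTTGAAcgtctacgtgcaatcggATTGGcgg
Cenpf: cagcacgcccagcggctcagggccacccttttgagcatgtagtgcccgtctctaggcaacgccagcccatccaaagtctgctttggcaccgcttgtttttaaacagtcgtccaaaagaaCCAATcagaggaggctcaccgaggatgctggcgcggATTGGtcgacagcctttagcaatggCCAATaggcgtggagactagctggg
Phlda3: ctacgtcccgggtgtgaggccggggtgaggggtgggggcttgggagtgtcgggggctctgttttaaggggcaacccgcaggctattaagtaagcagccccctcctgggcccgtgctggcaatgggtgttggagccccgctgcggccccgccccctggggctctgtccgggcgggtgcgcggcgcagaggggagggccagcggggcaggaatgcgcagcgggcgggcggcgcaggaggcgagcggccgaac
Ccng1: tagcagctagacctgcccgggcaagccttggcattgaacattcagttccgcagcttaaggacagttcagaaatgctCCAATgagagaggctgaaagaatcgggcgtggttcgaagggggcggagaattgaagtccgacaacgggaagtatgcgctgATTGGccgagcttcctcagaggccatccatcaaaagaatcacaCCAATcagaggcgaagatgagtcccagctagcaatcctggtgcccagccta
The Cdk1 stretch holds 3 CCAAT matches and 1 TTTGAA match, Cenpf 3 CCAAT matches, Ccng1 3 CCAAT matches and Phlda3 none of either, with 0 overlaps between matches. The whole Cdk1 window, which the shares that follow use, holds 2 TTTGAA matches, 1 of them in the bases left out. Over windows of 250 bases before the start, CCAAT occurs in 9 of the 13 tested cell cycle genes with a promoter in the table. It occurs in 4 of the 10 tested p53 targets with one, and in 34% of all 33469 promoters. TTTGAA occurs in 4 of the 13, in 1 of the 10 and in 16.2% of all. A search for the p53 core, 2 copies of CATG with 6 bases between them, found it in 0 of the 10 p53 targets and in 0.362% of all promoters. At that share a match in 10 windows was unlikely. Only this exact pattern in these windows was searched, so the 0 does not show that the genes lack p53 sites. These matches describe letters in the windows and show no binding.

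G1 regulators moved both ways. Ccnd2, which encodes cyclin D2, had levels of 10.23, 10.12, 8.41, 9.07 and 9.32 at 12 h and 7.78, 7.65, 7.85, 8.08 and 7.71 at 10 wk. The early rats spread widely, yet the lowest of them, rat 304, was still above every late rat. The fall was 1.62 (SE 0.35, 3.06-fold, adjusted p = 0.00404). Cdkn2b (p15) fell by 0.63 (SE 0.14, adjusted p = 0.00409) and Cdkn1c (p57) by 0.61 (SE 0.16, adjusted p = 0.014). Cdkn2c (p18) rose by 0.79 (SE 0.15, adjusted p = 0.00155), and all 3 encode inhibitors of cyclin-dependent kinases. None of these 4 genes overlapped between groups. Cdkn1b (p27) and the retinoblastoma gene Rb1 gave -0.12 (SE 0.27) and 0.05 (SE 0.15). In all, 1 of 7 tested members rose and 3 fell, where 7.85% of all tested probes rose and 5.5% fell. The 3 that fell passed under the scan class block and Cdkn2c gave 0.61 (adjusted p = 0.0519). With the authors' normalized values Ccnd2 (-1.75, adjusted p = 0.00925) and Cdkn2c (0.84, adjusted p = 0.0432) passed. Cdkn2b (-0.63, adjusted p = 0.117) and Cdkn1c (-0.79, adjusted p = 0.101) did not. Between repeat arrays of 1 rat in different classes, Cdkn2b differed by 1.20 (rat 103), 0.76 (rat 202) and -0.23 (rat 206).

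Among the called genes with non-overlapping groups the largest fall belonged to Cxcl10, a chemokine that interferons induce and that attracts T cells. Its levels were 10.90, 10.76, 9.53, 10.20 and 9.81 at 12 h and 8.05, 8.12, 7.95, 7.92 and 7.91 at 10 wk. The late rats lay close to each other and far below every early rat. The difference was -2.25 (SE 0.41, 4.75-fold lower, adjusted p = 0.00145). Cxcl11, which acts on the same receptor, fell from 10.53, 10.52, 9.83, 10.01 and 9.93 to 8.69, 8.77, 8.86, 8.95 and 8.69. That was -1.37 (SE 0.19, 2.59-fold lower, adjusted p = 0.00016), and the groups did not overlap. Of 18 tested members of the interferon list these 2 fell and Psmb9 rose, where 5.5% of all tested probes fell and 7.85% rose. Differences were below 0 for 14 of the 18, and the list median was -0.16. The third chemokine of the receptor, Cxcl9, gave -0.35 (adjusted p = 0.339), Irf1 -0.13, Irf7 0.05 and Ifit3 -0.35. Psmb9, an immunoproteasome subunit, rose by 0.43 (adjusted p = 0.0437). Its call ended without any 1 of rats 333, 334, 335, 301, 302, 304 or 305 (adjusted p 0.0507 to 0.139). Cxcl10 (-2.44, adjusted p = 0.0122) and Cxcl11 (-1.41, adjusted p = 0.00446) passed under the scan class block, and Psmb9 did not (0.33, adjusted p = 0.381).

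Most tested genes of transcellular calcium uptake were lower at 10 wk. Trpv6 encodes the channel by which calcium enters epithelial cells from the gut lumen. It had levels of 10.71, 11.34, 11.83, 11.64 and 12.14 at 12 h and 10.62, 10.02, 10.02, 10.36 and 9.91 at 10 wk. The groups came close, with early rat 301 just above late rat 332, and the fall was 1.35 (SE 0.24, 2.54-fold, adjusted p = 0.00133). S100g, the cytosolic calcium carrier calbindin, had levels of 13.03, 13.22, 14.23, 13.85 and 12.45 against 12.48, 11.49, 11.69, 11.36 and 10.90. It fell by 1.77 (SE 0.41, 3.42-fold, adjusted p = 0.00583), and early rat 306 lay below late rat 332. The vitamin D receptor gene Vdr, whose protein drives both genes, fell by 0.59 (SE 0.13, adjusted p = 0.00417) without overlap, and its other probe gave -0.55 (adjusted p = 0.236). Atp2b1, the basolateral calcium pump, fell by 0.76 (SE 0.25, adjusted p = 0.0396). Casr, the calcium-sensing receptor, named after its values were seen, fell by 0.62 (SE 0.20, adjusted p = 0.0408). Of 7 tested members 5 fell, with a list median of -0.76, where 5.5% of all tested probes fell. The calls of Atp2b1 and Casr each depended on single rats. Atp2b1 lost its call without any 1 of rats 334, 335, 336, 301, 302, 305 or 306 (adjusted p 0.0503 to 0.109), and Casr without any 1 of 334, 336, 302, 304, 305 or 306 (0.0506 to 0.119). Only Trpv6 passed under the scan class block (-1.36, adjusted p = 0.0135), and S100g then gave -1.73 (adjusted p = 0.0973), Vdr -0.44 (adjusted p = 0.116), Atp2b1 -0.64 (adjusted p = 0.122) and Casr -0.67 (adjusted p = 0.15).

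**Figure D2:**
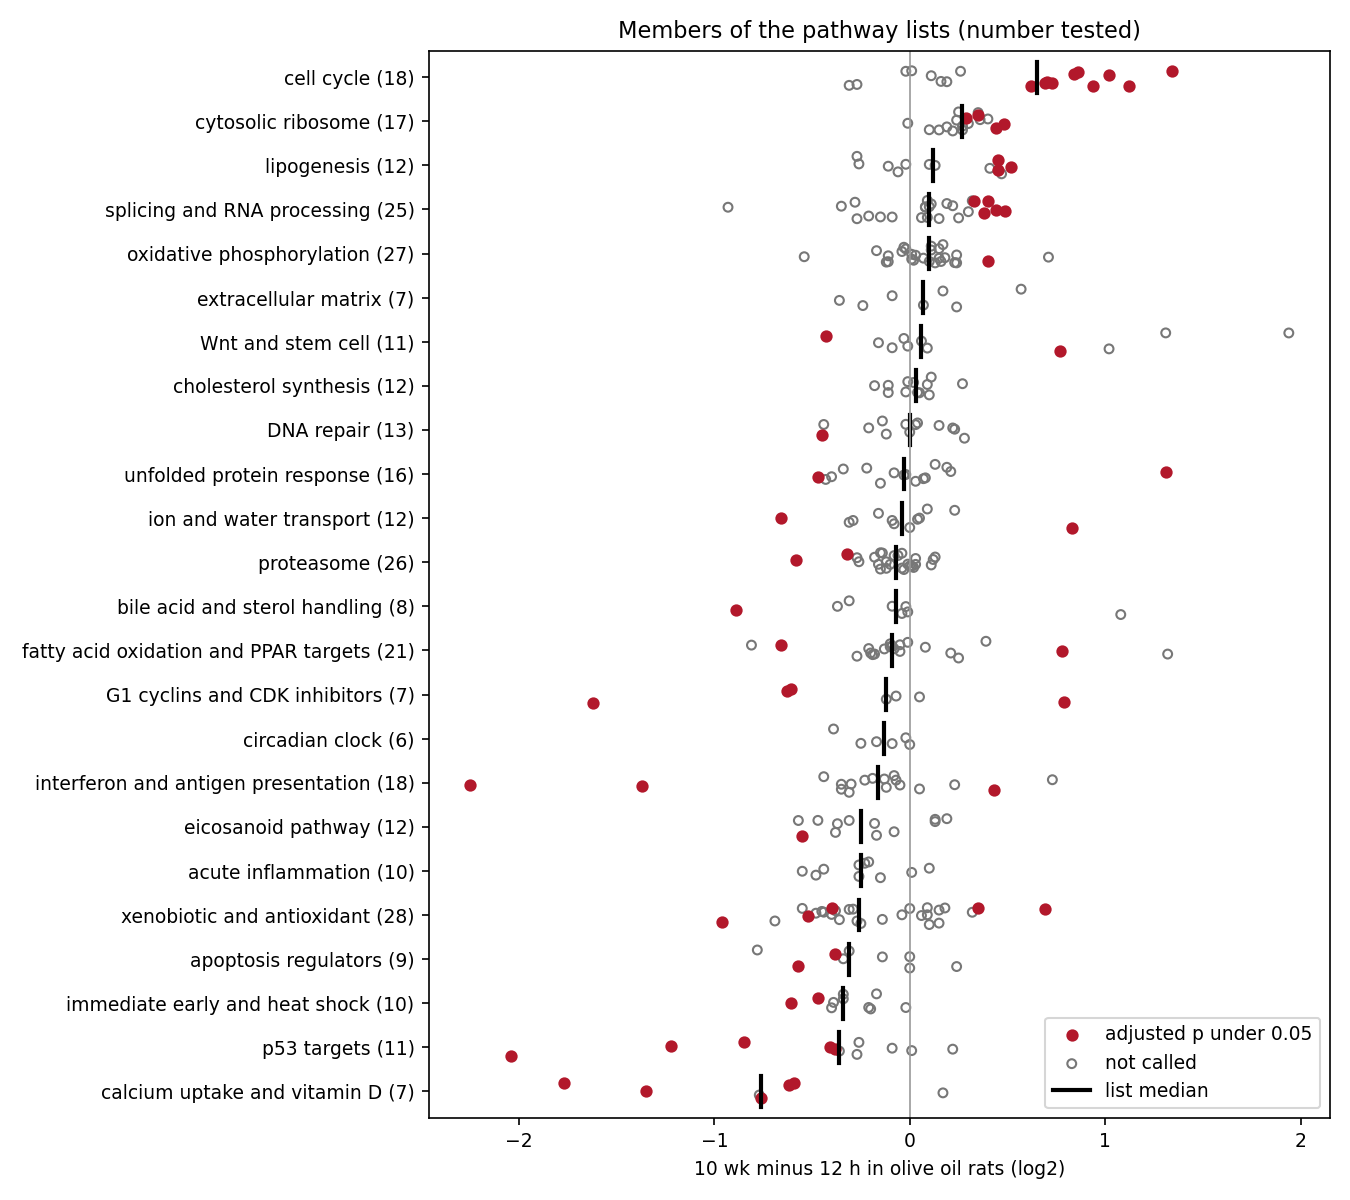
Difference between 10 wk and 12 h in olive oil rats (log2, horizontal axis) of each tested member of the 24 pathway lists, with members called at an adjusted p under 0.05 filled and the list median as a bar. The cell cycle list has the highest median (0.65) and the calcium list the lowest (-0.76).

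Other large falls came from genes of mixed function. Zmiz1, a transcriptional coactivator related to the PIAS family, had levels of 10.25, 10.47, 10.67, 10.37 and 10.73 at 12 h and 9.30, 9.33, 9.41, 9.30 and 9.04 at 10 wk. The gap between the groups exceeded the range within either, and the fall was 1.22 (SE 0.21, adjusted p = 0.00104). Another Zmiz1 probe gave -0.03 (adjusted p = 0.892), so the probes disagree. Ddx6, an RNA helicase of processing bodies, fell by 1.03 (SE 0.21, adjusted p = 0.0025), and Cda, the cytidine deaminase of pyrimidine salvage, by 0.94 (SE 0.17, adjusted p = 0.00149). Sult1b1, a sulfotransferase of the gut and liver, fell from 8.46, 8.84, 8.81, 8.17 and 8.16 to 7.68, 7.51, 7.38, 7.61 and 7.46. The difference was -0.96 (SE 0.16, adjusted p = 0.000776). The prolactin receptor gene Prlr and the apolipoprotein gene Apoa1 each gave -0.89 (SE 0.25, adjusted p = 0.0175 and 0.021). Prlr missed the threshold without rat 334 or 305 (adjusted p 0.0542 to 0.0549) and Apoa1 without rat 334, 336 or 304 (0.0589 to 0.0676). Under the scan class block all of these except Apoa1 (-0.68, adjusted p = 0.255) passed.

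Among the other large rises Ankrd10, an ankyrin repeat gene, had the smallest adjusted p of the named genes. It went from 11.34, 10.74, 11.60, 11.15 and 11.25 to 12.31, 12.22, 12.36, 12.03 and 12.50, a rise of 1.07 (SE 0.13, adjusted p = 6.39e-05) with no overlap. Pdia5, a protein disulfide isomerase of the endoplasmic reticulum, rose from 7.53, 7.43, 7.88, 7.26 and 7.95 to 8.71, 9.04, 9.24, 8.55 and 9.06. Every late rat was above every early one, and the rise was 1.31 (SE 0.33, adjusted p = 0.0103). Tmpo, for a protein of the nuclear lamina, rose by 1.10 (SE 0.23, adjusted p = 0.00335) and Cenpt, for a kinetochore protein, by 1.07 (SE 0.24, adjusted p = 0.00417). Rat 302 was far below the other early rats for Tmpo, at 9.15 where they lay at 10.65 to 11.29. The probe annotated to the antisense RNA Thumpd3-as1 rose by 1.15 (SE 0.22). Nrbp2, a pseudokinase gene, rose by 1.08 (SE 0.19), and Fhit, a tumour suppressor gene at a fragile site in humans, by 1.02 (SE 0.19). Under the scan class block Pdia5 (1.41, adjusted p = 0.0895) and Cenpt (0.91, adjusted p = 0.0885) lost their calls, and Ankrd10, Tmpo, Thumpd3-as1, Nrbp2 and Fhit kept theirs.

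For a further pair of rises the measurement itself differed between spots. Slc10a1, a sodium-dependent bile acid transporter of the liver, rose by 1.26 (SE 0.33, adjusted p = 0.0137) on a dim probe, from 6.72, 6.71, 7.55, 6.57 and 7.77 to 8.33, 8.62, 8.39, 8.31 and 7.99. Its brighter probe went the other way without passing, at -0.37 (SE 0.17, adjusted p = 0.142), so no direction is given for the gene. Kank2, which links adhesions to the cytoskeleton, rose by 1.01 (SE 0.26, adjusted p = 0.0102). The late rats lay at 7.78, 7.98, 7.88, 8.35 and 9.81, against 7.69, 7.34, 7.46, 7.15 and 7.12 at 12 h. Neither Slc10a1 (1.22, adjusted p = 0.117) nor Kank2 (0.73, adjusted p = 0.207) passed under the scan class block. The highest Kank2 value, of rat 336, is the mean of repeat arrays that read 11.82 and 7.80. With only the lower of these arrays the difference was 0.61, and with only the higher 1.41.

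Stem cell and Wnt genes, which maintain the crypt base, gave 1 rise and 1 fall among 11 tested, near the 7.85% and 5.5% of all tested probes. Cd44, a cell surface receptor and Wnt target, rose by 0.77 (SE 0.19, adjusted p = 0.0098), from 8.37, 8.96, 8.32, 8.89 and 8.76 to 9.19, 9.24, 9.58, 9.98 and 9.16. Its groups did not overlap, and under the scan class block it did not pass (0.51, adjusted p = 0.245). Gsk3b, the kinase that marks beta-catenin for degradation, fell by 0.43 (SE 0.11, adjusted p = 0.0154) and passed under the scan class block (-0.58, adjusted p = 0.00975). With the authors' normalized values Gsk3b did not pass (-0.44, adjusted p = 0.177). Ascl2, the transcription factor of crypt base stem cells, and Sfrp2, a secreted Wnt modulator, had larger differences that missed the threshold. They gave 1.02 (SE 0.35, adjusted p = 0.0531) and 1.31 (SE 0.47, adjusted p = 0.0595), with overlapping groups. The largest difference in the list was that of Lrp5, at 1.94 (SE 0.98, adjusted p = 0.183) without overlap. Under the scan class block Lrp5 gave 0.08 (adjusted p = 0.979). Myc, Ctnnb1 and Apc gave -0.01, 0.09 and -0.09.

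Some genes of protein and RNA production were slightly higher at 10 wk. Of 17 tested genes of the cytosolic ribosome 4 rose, all by under 0.5, 16 of the 17 differences were above 0 and the list median was 0.27. Over all tested probes 7.85% rose. Rplp1 went from 14.45, 14.43, 14.43, 14.24 and 14.51 to 14.70, 14.85, 14.94, 15.15 and 14.80, without overlap. It rose by 0.48 (SE 0.11, adjusted p = 0.00512), Rpl23a by 0.44 (adjusted p = 0.0153), Rps3a by 0.35 (adjusted p = 0.0242) and Rpl10 by 0.29 (adjusted p = 0.0433). The repeat arrays of early rat 301 read Rps3a at 14.63 and 15.15, a gap of 0.51 that exceeds its rise. With median scaling of the arrays, or under the scan class block, 0 of the 17 passed. Of 25 tested splicing and RNA processing genes 5 rose and 0 fell, with a median of 0.10, again against 7.85% of all probes that rose. Tra2b, a splicing regulator, rose by 0.49 (SE 0.09, adjusted p = 0.00133) and passed under the scan class block (0.40, adjusted p = 0.0296), the only one of the 25 to do so. Hnrnpm (0.44), Hnrnpa2b1 (0.40), Srsf3 (0.38), named after its values were seen, and Snrpe (0.33) encode RNA-binding or spliceosome proteins. Calls of Rps3a, Rpl10, Hnrnpm, Hnrnpa2b1, Snrpe and Srsf3 each ended without any 1 of rats 334, 336, 304 or 305, and some also without 335 or 306 (adjusted p 0.0514 to 0.131). Tfam, the mitochondrial transcription factor, was the only one of 27 tested genes of oxidative phosphorylation to rise, by 0.40 (adjusted p = 0.0232), and it missed the threshold without rat 334, 335 or 336 (0.0596 to 0.0761) and under the scan class block (0.26, adjusted p = 0.364).

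Of 12 tested genes of lipogenesis 3 rose and 0 fell, with a median of 0.12, where 7.85% of all tested probes rose. They were Acsl4 (0.52, SE 0.14, adjusted p = 0.0171), which activates arachidonate, Acaca (0.45, SE 0.14, adjusted p = 0.033), which makes malonyl-CoA, and Elovl5 (0.45, SE 0.15, adjusted p = 0.0424), an elongase of polyunsaturated fatty acids. Fasn, the fatty acid synthase, gave 0.41 (SE 0.14, adjusted p = 0.0548) and Acly 0.47 (SE 0.17, adjusted p = 0.0579). The call of Acaca ended without rat 333, 335, 336, 301 or 305 (adjusted p 0.0548 to 0.0835), and that of Elovl5 without rat 334, 335, 336, 304, 305 or 306 (0.0671 to 0.127). Among 21 genes of fatty acid oxidation and PPAR targets, Cpt1b rose and Ppard fell, fewer than the 13.4% of all tested probes that were called. Cpt1b, the muscle form of the enzyme that carries fatty acids into mitochondria, rose by 0.78 (SE 0.15, adjusted p = 0.00157). For Cpt1b 3 early rats lay at the floor set for dim spots (6.46) and rats 304 and 306 at 6.96 and 7.05, and the late rats had 7.65, 7.50, 7.57, 6.89 and 7.67. Cpt1b passed under the scan class block (0.80, adjusted p = 0.0239), which 0 of the lipogenesis genes did (Acsl4 0.45, adjusted p = 0.189; Acaca 0.35, adjusted p = 0.243; Elovl5 0.38, adjusted p = 0.254). Ppard, the nuclear receptor PPAR delta, fell by 0.66 (SE 0.21, adjusted p = 0.0365), a call lost without rat 333, 334, 336, 304, 305 or 306 (0.0739 to 0.0947) and under the scan class block (-0.91, adjusted p = 0.0511). Of 12 tested genes of cholesterol synthesis 0 passed by limma in either direction, none had an adjusted p below 0.442, and the median was 0.03. A dimmer probe of Sqle, an enzyme of that pathway, did pass at -0.50 (adjusted p = 0.0301). Of 8 tested bile acid and sterol genes only Apoa1 passed, and Fabp6, the ileal bile acid binding protein, gave 1.08 (SE 0.40, adjusted p = 0.0701) without overlap.

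In the xenobiotic list 2 of 28 tested members rose and 3 fell, with a median of -0.26, where 7.85% of all tested probes rose and 5.5% fell. The rises are thus near the share of all probes. Beside Sult1b1, the cytochrome gene Cyp3a9 fell by 0.52 (SE 0.13, adjusted p = 0.00974) without overlap. The epoxide hydrolase gene Ephx1 fell by 0.40 (SE 0.12, adjusted p = 0.0302) and by 0.57 (adjusted p = 0.012) on its other probe. Another sulfotransferase gene, Sult1c2, rose by 0.69 (SE 0.20, adjusted p = 0.0212). It was opposite in direction to Sult1b1 and likewise had no overlap. Gsr, the glutathione reductase, named after its values were seen, rose by 0.35 (adjusted p = 0.0442), but its other probe gave 0.00 (adjusted p = 0.99). Ephx1 lost its call without rat 334, 336, 302, 305 or 306 (adjusted p 0.0519 to 0.1), Sult1c2 without 334 or 304 (0.0589 to 0.0624) and Gsr without 334, 335, 336, 304, 305 or 306 (0.057 to 0.139). Of 12 eicosanoid genes 1 fell, Ptgs1, the constitutive cyclooxygenase, by 0.55 (SE 0.15, adjusted p = 0.0178), lost without rat 335 or 305 (0.0546 to 0.0556). The repeat arrays of late rat 334 read Ptgs1 at 7.67 and 8.14. Alox5ap, Alox5 and Hpgd, all of eicosanoid synthesis or breakdown, gave -0.47, -0.38 and -0.37 with adjusted p of 0.0516, 0.0542 and 0.0555. Another probe of Hpgd passed at -0.52 (adjusted p = 0.0382). In ion and water transport Slc12a2, the basolateral chloride uptake carrier of crypt cells, rose by 0.83 (SE 0.19, adjusted p = 0.0061), from 12.04, 11.85, 11.44, 11.41 and 11.58 to 12.06, 12.25, 12.81, 12.80 and 12.53. Its groups touch closely but do not overlap. The aquaporin gene Aqp3 fell by 0.66 (SE 0.18, adjusted p = 0.0192), a call lost without rat 336 (adjusted p = 0.0557). Under the scan class block Slc12a2 (0.88, adjusted p = 0.0635), Aqp3 (-0.62, adjusted p = 0.22), Cyp3a9 (-0.63, adjusted p = 0.0587), Ptgs1 (-0.28, adjusted p = 0.232) and Gsr (0.28, adjusted p = 0.306) lost their calls. Sult1b1 (adjusted p = 0.00906), Sult1c2 (0.82, adjusted p = 0.0369) and Ephx1 (-0.57, adjusted p = 0.0451) passed.

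Counts of stress and damage genes beyond the p53 targets are to be read against 7.85% of all tested probes that rose and 5.5% that fell. Of 13 tested DNA repair genes 1 fell and 0 rose. That gene was Nbn, of the complex that senses double-strand breaks, at -0.45 (SE 0.09, adjusted p = 0.0016) without overlap and at -0.51 (adjusted p = 0.0202) under the scan class block. Of 9 apoptosis regulators 2 fell and 0 rose. Casp9, the initiator caspase of the mitochondrial pathway, fell by 0.38 (SE 0.09, adjusted p = 0.00611), and Mcl1, which protects cells from death, by 0.57 (SE 0.14, adjusted p = 0.0102), both without overlap. A dimmer probe of the death receptor gene Tnfrsf1a passed at -0.57 (adjusted p = 0.00911) and its brighter one did not (-0.31). All 10 tested immediate early and heat shock genes had differences below 0, with a median of -0.34, and 2 of them passed. Egr2, a transcription factor gene, fell by 0.61 (SE 0.17, adjusted p = 0.0161) and Jun, of the AP-1 factor, by 0.47 (SE 0.15, adjusted p = 0.0369). Jun lost its call without rat 334, 335, 336, 304 or 306 (adjusted p 0.0799 to 0.0982). In the unfolded protein response, 16 tested, Pdia5 rose and the asparagine synthetase gene Asns fell by 0.47 (adjusted p = 0.0382), but another Asns probe rose by 0.56 (adjusted p = 0.0361), so no direction is given for it. Its fall was lost without rat 332, 334, 336, 302, 304 or 305 (0.0617 to 0.127). Of 26 proteasome genes 2 fell, Psmd1 by 0.58 (adjusted p = 0.0157) and Psmd9 by 0.32 (adjusted p = 0.0294), both of the regulatory particle or its assembly. Psmd9 was lost without rat 332, 334, 335, 304, 305 or 306 (0.0558 to 0.0785). Under the scan class block Casp9 (-0.30, adjusted p = 0.126), Mcl1 (-0.46, adjusted p = 0.186), Egr2 (-0.72, adjusted p = 0.0561) and Jun (-0.27, adjusted p = 0.406) did not pass. Nor did Pdia5 (1.41, adjusted p = 0.0895), Asns (-0.38, adjusted p = 0.224), Psmd1 (-0.50, adjusted p = 0.157) or Psmd9 (-0.41, adjusted p = 0.0835). By limma 0 of 10 acute inflammation genes, 0 of 6 clock genes and 0 of 7 matrix genes passed. Their smallest adjusted p-values were 0.0576 for Tnf, 0.107 for Nr1d2 and 0.061 for Col6a1.

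The makeup of the samples was followed with 13 lists of cell type markers, of which 47 genes were tested. One rose and 4 fell (10.6% of the 47, against 13.4% of all tested probes). The labelled tissue showed in 7 colonocyte markers such as villin (Vil1), with mean levels of 12.98 to 13.18 in the early rats and 12.61 to 12.95 in the late rats. By limma 0 of these 7 passed, with the smallest adjusted p at 0.0637 for Klf4, a median of -0.34 and summed linear levels of 75370 to 80720 at 12 h and 54530 to 68940 at 10 wk, so the ranges of the rats did not meet. Differences were below 0 for 6 of the 7, and Hsd11b2 gave 0.18. Tff3, which is also a goblet cell marker, was the brightest of the 7 (mean level 14.60 at 12 h) and so weighs most in the sum. The part of these lower marker levels in the gene results was not tested. Both goblet cell markers tested, Tff3, which the colonocyte list also holds, and Zg16, gave -0.34 and -0.25 and did not pass, with summed levels of 55360 to 59850 and 37930 to 61720. Gcg, the proglucagon gene of enteroendocrine cells, rose by 0.63 (SE 0.19, adjusted p = 0.0316), lost without rat 334, 335, 301, 302, 304 or 306 (adjusted p 0.0501 to 0.0928). Granzyme genes of cytotoxic lymphocytes fell, Gzma by 0.73 (SE 0.16, adjusted p = 0.0037) and Gzmb by 0.86 (SE 0.26, adjusted p = 0.0302). The other tested members of the T and NK cell list did not pass, with the lymphocyte genes Cd5 at 0.56 (SE 0.31, adjusted p = 0.221), Lck at 0.00 (SE 0.17) and Nkg7 at -0.18 (SE 0.19). Gzmb lost its call without rat 333, 334, 336, 304 or 306 (0.0628 to 0.0844). The 5 tested T and NK cell markers had summed levels of 1486 to 1985 at 12 h and 1089 to 1495 at 10 wk, beside the falls of Cxcl10 and Cxcl11. The part of one in the other was not tested. Tpsb2, a mast cell tryptase gene, fell by 0.50 (SE 0.11, adjusted p = 0.00456) without overlap. None of these marker calls passed under the scan class block, with Gcg at 0.71 (adjusted p = 0.13), Gzma at -0.48 (adjusted p = 0.137), Gzmb at -1.02 (adjusted p = 0.0851) and Tpsb2 at -0.37 (adjusted p = 0.111). The neurofilament gene Nefl fell by 0.58 (adjusted p = 0.0433), but without any 1 of rats 332, 334, 335, 336, 302, 304, 305 or 306 it did not pass (0.0529 to 0.124), and under the scan class block it gave 0.03. The repeat arrays of late rat 334 read Nefl at 7.36 and 8.04, and Gzma at 8.34 and 8.83. Myh11 of smooth muscle, Col1a1 of fibroblasts, Pecam1 of endothelium and Adipoq of fat gave 0.57, 0.17, 0.12 and -0.17, and none passed. Krt20, Muc2, Chga, Cd3e, Cd79a and Cd68 have no probe with a single symbol here.

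The change over time in olive oil rats was then set against that in corn oil rats (5 at each time) and fish oil rats (5 early and 4 late). The diets share no rats. Averages of late corn oil rat 136 and late fish oil rat 236 include repeat arrays of the high background class. By the first array of each rat, all 5 early fish oil rats had narrow spots and all 4 late ones broad spots, so class and time cannot be told apart there. The averages of early fish oil rats 202 and 206 also include a hollow and a broad repeat array. That of early corn oil rat 103 includes a narrow one beside its broad first array. Among corn oil rats 193 probes were called (3.02%) and among fish oil rats 773 (12.1%). Of the 852 olive oil calls 120 were also called in corn oil with the same sign, which is 14.1% of the olive oil calls and 62.2% of the corn oil calls. With fish oil 353 were shared, 41.4% of the olive oil and 45.7% of the fish oil calls. None was called in opposite directions, and 474 passed in olive oil alone, which is not a test of a difference. The olive oil calls had the same sign in corn oil for 95.1% and in fish oil for 98%, against 65.1% and 74.1% of the probes not called. The difference in corn oil was 0.52 times that in olive oil at the median called probe, and in fish oil 0.76 times. Because the probes were called in olive oil, these ratios describe the probes and are no test.

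The difference between diets was tested as olive oil minus the mean of corn and fish oil. By limma 0 of 6381 probes passed (0%), and 309 had an unadjusted p under 0.05, where 319.1 would fall by chance. The smallest adjusted p was 0.671. Mki67 rose by 1.12 in olive oil rats, whereas the corn oil rats gave 0.50 (adjusted p = 0.176) and the fish oil rats 0.20 (adjusted p = 0.591). Of the 18 tested cell cycle genes 16 had a larger difference in olive oil rats than in either other diet, among them all 10 that rose. Those 10 were called in olive oil rats, which favours a larger value there, so the count is no test. For Mki67 the olive oil difference exceeded the mean of the others by 0.77 (SE 0.25, unadjusted p = 0.0052, adjusted p = 0.922), and for Cenpf by 0.75 (SE 0.33, adjusted p = 0.922). Neither is therefore shown to differ between diets. Phlda3, in contrast, fell in both other diets, with -1.49 (adjusted p = 0.00483) for corn oil and -1.81 (adjusted p = 0.000641) for fish oil, and Ankrd10 rose in both (adjusted p = 0.000226 and 0.00035). Zmiz1 gave -1.38 and -1.72 there against -1.22 in olive oil.

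**Figure D3:**
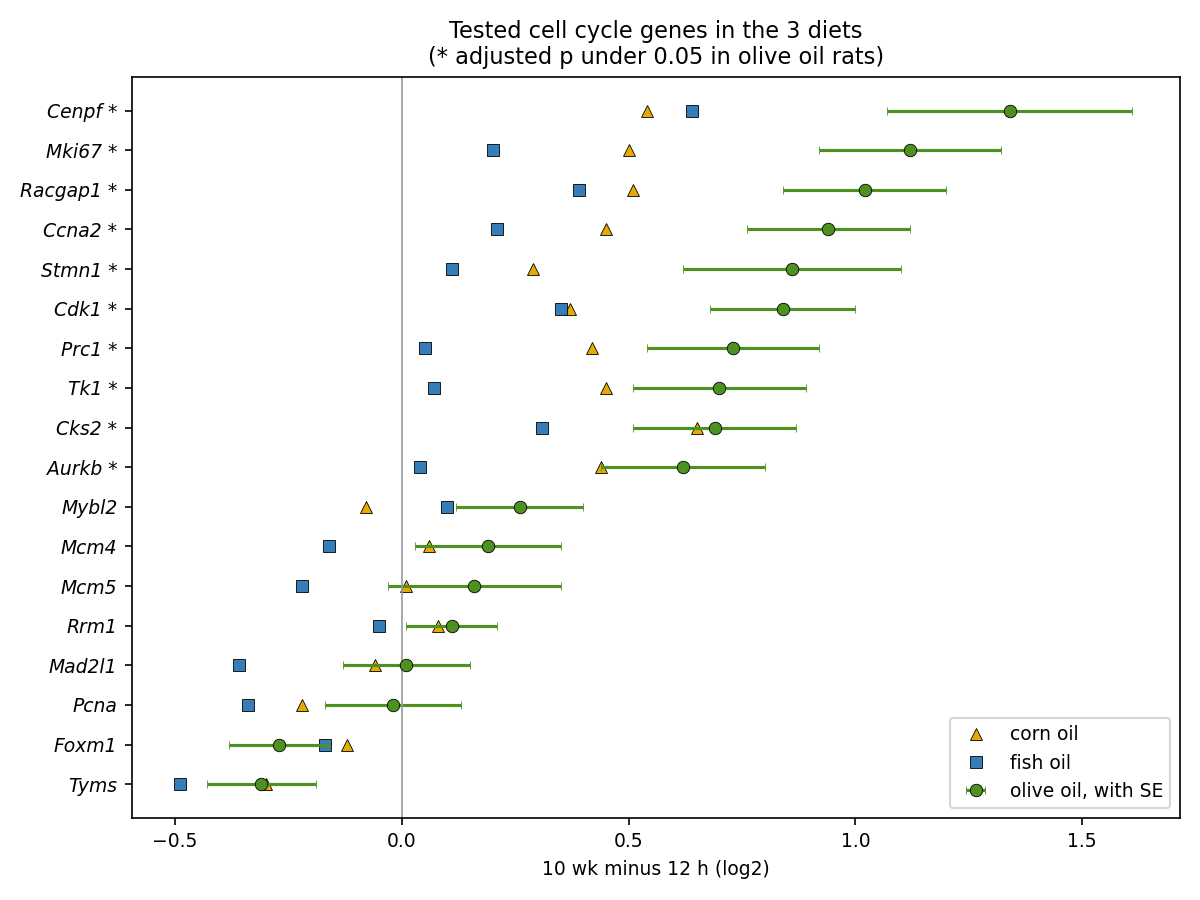
Difference between 10 wk and 12 h (log2, horizontal axis) of the 18 tested cell cycle genes in olive oil rats, with its SE, and in corn oil and fish oil rats. Of the 18 genes 16 lie furthest right in olive oil, and the 10 called there, marked by an asterisk and so chosen on the olive oil values, run from 0.62 for Aurkb to 1.34 for Cenpf. No difference between diets passed its test.

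Because scan class and time were unevenly spread, the named calls were read in both further settings. Of 80 called probes of named genes 79 kept their sign under the scan class block and 29 their call. Among all tested probes, 99.9% of those called and 80.9% of those not called kept their sign under it. All 80 had the same sign between the late hollow rat 333 and the 3 early hollow rats. These probes were called with those rats included, which favours the same sign. For 56 of the 80 the 2 groups do not overlap, so their sign was fixed in advance. The genes given next are all among these. In that class Phlda3 gave -2.22, Cxcl10 -2.50, Trpv6 -1.21, Ccnd2 -2.15, Mki67 0.71, Cenpf 1.28 and Racgap1 0.73, with no replicate at 10 wk. Over all probes 99.8% of the called ones with a value and 74.8% of those not called kept their sign there. Among the 4 late broad and 2 early narrow rats left without the hollow class, where class and time cannot be told apart, Phlda3 gave -1.68 and Mki67 1.30.

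**Figure D4:**
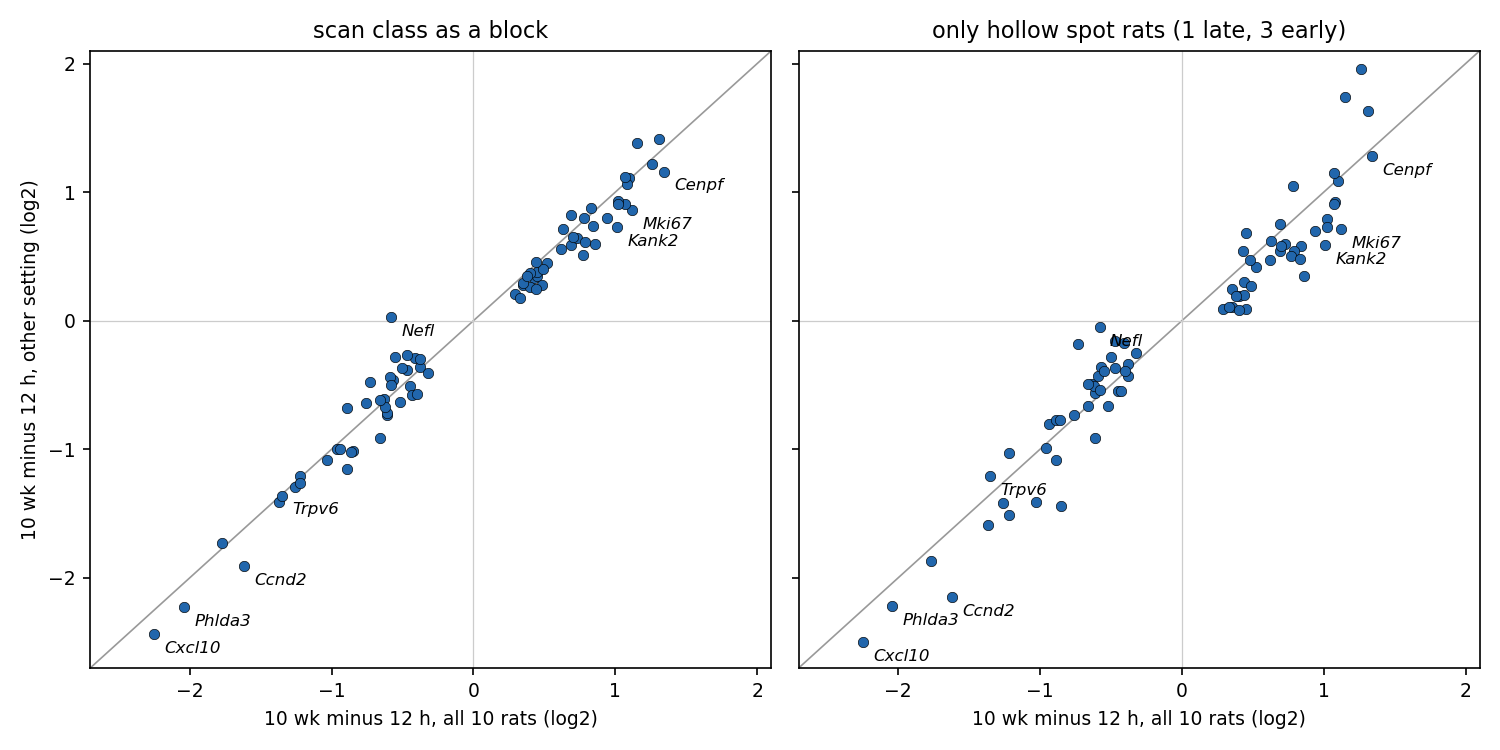
Difference between 10 wk and 12 h (log2) of the 80 called probes of named genes from all 10 olive oil rats (horizontal axis) against the same difference under the scan class block (left) or among the hollow spot rats alone (right), with the line of equal values. Points lie near that line in the left panel except Nefl, which moved from -0.58 to 0.03, and spread more widely in the right panel, which rests on 1 late rat.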

How the data were processed

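The 13 olive oil arrays were analysed together with the 30 arrays of the other diets, so that all 6 groups shared 1 estimate of the spread. Each array's deposited file gives spot mean intensity and local background median intensity per probe, per the file headers, and these columns were used. The deposited raw and normalized intensity columns hold 1 constant in place of many probes of a diet, 1225 probes on the olive oil arrays, and the authors' normalized values entered as an alternative only, without those probes. The scanner's spot diameter and noise columns, per the file headers, served to class and check arrays. The scan quantification program was not given in the sources used here.

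Spots coded -9999 were treated as missing. After normexp background correction (offset 50), arrays were quantile normalised, values under the 10th percentile were raised to it and log2 was taken (limma 3.58.1, R 4.3.3). Repeat arrays were averaged per rat. A probe was tested if 4 or more rats exceeded the 30th percentile of levels, which held for 75.5% of 8452. A limma fit of 6 groups (lmFit, eBayes, 23 residual degrees of freedom) gave the contrasts, with Benjamini-Hochberg adjustment over all tested probes. Errors of differences are its SE, and 5 rats a group limit their precision. The fit was tested on simulated data.

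Of the probes 6252 have 1 gene symbol in the platform annotation, 75 several and 2125 none. In lists the probe with the highest mean stands for a gene. Members and lists were chosen with earlier results of these data known. The genes named are the 12 largest rises and 12 largest falls among called probes with non-overlapping groups, up to 4 members per list with the smallest adjusted p, markers that passed and defining markers. Others, named as beyond that rule or to show members that did not pass, were chosen after their values were seen. Alternatives changed scaling, filters, background, weights, repeat arrays, rats and scan class. Promoters come from RefSeq GRCr8 and figures from matplotlib 3.10.9.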

Additional observations from a re-analysis of the deposited data

Results flagged for a closer look

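The named probes gave 254 groups of olive oil rats, each of 5 rats except Col6a1 at 12 h, where rat 305 has no value. In 14 groups 1 rat lay far from the other 4, with a gap to the nearest rat of over 0.71 of the group's range (Dixon's test). Chance gives about 5% of groups. At 10 wk the lowest rat stood apart for Ccng1 on its dimmer probe (rat 332, 0.741), Fen1 (rat 332, 0.816), Fasn (rat 332, 0.879), Cpt1b (rat 335, 0.792), Vdr (rat 335, 0.793) and Mmp2 (rat 335, 0.865). The highest rat at 10 wk, rat 336, stood apart for Kank2 (0.717) and Psmd9 (0.870). At 12 h the lowest rat stood apart for Fhit (rat 301, 0.723), Ehhadh (rat 301, 0.795), Tnf (rat 306, 0.732), Fdft1 (rat 302, 0.728) and Atp5mc1 (rat 302, 0.835), and the highest for Gcg (rat 305, 0.871). For Fasn rat 332 lay at 9.72 and the next late rat at 10.10. For Atp5mc1, of the ATP synthase, rat 302 lay at 10.91 and the next early rat at 12.95, and for Fdft1, of cholesterol synthesis, at 10.74 and 11.91.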

How the results depend on the processing

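No paired analysis was possible because numbers in the titles mark repeat arrays of 1 rat and each rat was sampled at 1 time. The 852 calls (501 higher, 351 lower) became 2367 (1230, 1137) with array quality weights, 122 (87, 35; 71.3% higher against 58.8%) among the 5201 probes testable in the deposited normalized values, and 194 (113, 81) when scan class was a block. The block fit also left out repeat arrays of another scan class, a change that by itself gave 611 calls. The 3 settings that follow, and the limits that define scan class, were chosen after seeing the data. Only hollow spot rats gave 2 calls (2, 0), where the lone late rat is assumed to vary like the other groups. Without the hollow spot rats there were 618 calls (345, 273) and without repeat arrays of another scan class 611 (349, 262). Leaving out 1 rat gave 456 to 926 calls, 285 to 532 higher and 171 to 407 lower, lowest without rat 334, then 336 (512) and 305 (522). Median scaling (701), the first array of each rat (677), only olive oil rats (733), the rat as a random block (948), no filter on dim probes (990), no floor (848), plain subtraction (851) and robust moderation (847) stayed within 1.5 times. The difference from the other diets stayed at 0 calls without any 1 rat, and gave 22 with array quality weights and 1 with first arrays. Of 80 called probes of named genes, 51 kept their call without every single rat in turn. Of the 66 with a deposited normalized value, 27 kept their call in that setting, 39 lost it and 0 changed sign. Among those lost were Nbn (-0.49, adjusted p = 0.0804) and Tra2b (0.49, adjusted p = 0.159), which passed under the scan class block. Signs turned for Pecam1 (-0.07 with array weights, -0.00 to 0.21 without 1 rat, lowest without 306), Fdft1 (-0.02 to 0.38 without 1 rat, lowest without 302) and Lss (-0.04 without hollow spot rats). Under that block they turned for Il1a (0.02), the brighter Slc10a1 probe (0.08), Mmp13 (0.20), Mmp2 (0.13), Col1a1 (-0.10), Pecam1 (-0.32), Adipoq (0.20) and Nefl (0.03). Among hollow spot rats they turned for Mpg (0.01), Il1a (0.13), Sqle (0.16), the brighter Slc10a1 probe (0.03), Slc9a2 (0.03), Mmp13 (0.01), Mmp2 (0.20), Pecam1 (-0.22) and Adipoq (0.72). Of these only Nefl had been called. Leaving out samples lowers the power, and the cause of the other shifts was not tested.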
